A study of Arabidopsis thaliana with 8 samples.

Results

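Whole Arabidopsis thaliana seedlings that lack CURLY LEAF (CLF) held a small group of transcripts at levels that neither wild type nor seedlings lacking the related gene SWINGER (SWN) reached. CLF and SWN encode histone methyltransferases of the Polycomb group, enzymes that place repressive methyl marks on histone H3 and so keep developmental genes silent in tissues where they are not used. The pair is known to overlap in function, so that loss of CLF alone gives a mild plant with curled leaves and early flowering, and loss of both gives seedlings that turn into callus-like, embryo-like tissue. Of 22746 ATH1 probe sets (each a set of short probes for a transcript, with control probe sets left out), 29 (0.127%) met a rule on signal: both clf-28 arrays at 20 or more, and the lower clf-28 array at least 2 times the highest of the 4 wild-type and swn-7 arrays. SWEET10, UGT76E12 and 3 probe sets with no gene name in the platform's annotation were left out of these, which left the 24 members described here. Organelle-encoded genes and AGL19 were also to be left out, and none of them met the rule.

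The 4 genotypes, with 2 arrays each, were Columbia (Col-0) wild type, 2 single mutants that each carry a T-DNA insertion (swn-7 or clf-28), and a double mutant that carries both. Seeds were kept cold for 3 days and grown on nutrient plates, for 10 days in wild type and both single mutants and for 12 days in the double mutant, and all samples were labelled as growth stage 1.03. Genotype and age therefore cannot be told apart in any comparison of the double mutant. Each mutation is represented by a single insertion allele, and the labels do not tell whether arrays of the same genotype were grown or extracted separately, so p-values measure the spread between these arrays, which may be technical. In whole seedlings, fewer cells that hold a transcript and less of it per cell cannot be told apart.

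Between 69.1% and 71.6% of probe sets lay above a floor of 10 signal units per array, and lower signals were set to that floor. The wild-type arrays lay further apart than any other pair, with 1059 of 17332 tested probe sets at least 2-fold apart against 161 in clf-28, 357 in swn-7 and 554 in the double mutant. No probe set was named CLF or SWN, so the mutated genes were not used here to check the labels. The leaf markers LHCB4.1, an antenna protein, and PRK, a Calvin-cycle enzyme, summed to 5664.8 to 7841.2 signal units on the 6 arrays of wild type and the single mutants, and to 365 and 528 in the double mutant. The seed markers OLEO3 and PAP85 summed to 5597.3 and 6698.6 in the double mutant, against at most 83.4 on the other 6 arrays. The root hair expansins EXPA7 and EXPA18 summed to 67.0 and 111 in clf-28, 35.2 to 58.7 in wild type and swn-7, and 20 to 23.4 in the double mutant. The part of these marker shifts in the members' values was not tested.

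Membership rests on the wild-type, swn-7 and clf-28 arrays, so the clf-28 values are a description and carry no test. The lower clf-28 array stood between 2.00 and 9.33 times above the highest wild-type or swn-7 array, with a median of 3.46. Within clf-28, 19 of the 24 members differed by less than 1.5-fold between the 2 arrays, and 264638_at differed most, by 3.26-fold. The members closest to the threshold were 264638_at (2.05), 248371_at (2.05) and 256300_at (2.00). Just outside lay AT3G25640 (1.99), 251428_at (1.96) and ALC (1.93), a helix-loop-helix regulator of fruit opening. Leaving out an array can only relax the rule: it was met by 71 probe sets without clf-28 replicate 1, by 37 without clf-28 replicate 2 and by 37 without swn-7 replicate 2.

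The rule was also applied to the arrays of a single replicate number. On the replicate 1 arrays of wild type, swn-7 and clf-28 alone, it chose 78 probe sets, of which 40 (51.3%) met it again on the replicate 2 arrays, where 0.53% of all 22625 eligible probe sets did. Chosen on replicate 2, 120 probe sets met it, and the same 40 (33.3%) met it on replicate 1, against 0.345% of all. The 24 members are among the 40 by construction, since their choice used both sets of arrays, so these shares describe the rule and add no support for the members.

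**Figure D1:**
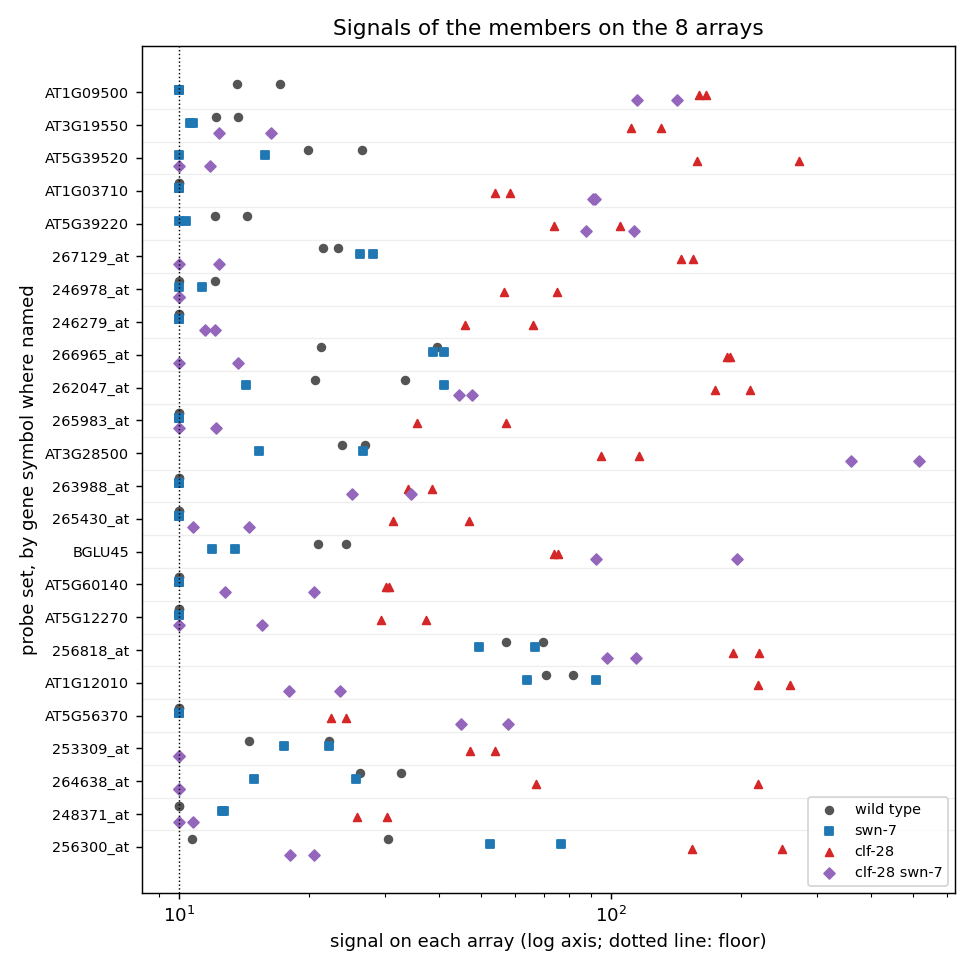
Signal of each of the 24 members (rows, ordered by the clf-28 ratio) on each of the 8 arrays, on a log axis, with 2 points per genotype and a dotted line at the floor of 10. The clf-28 points stand to the right of all wild-type and swn-7 points by the rule, and the clf-28 swn-7 points spread over the whole width.

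The members divided in the double mutant. The double-mutant arrays played no part in the choice, although the wild-type and swn-7 arrays they are set against had been chosen low. Of the 24, 7 met the same rule in the double mutant, which 5.23% of all probe sets did. A further 5 lay above all 4 wild-type and swn-7 arrays by a smaller ratio, 7 overlapped these arrays or tied with them at the floor, and 5 lay below all of them. Over all probe sets, 26.6% lay above the 4 arrays on both double-mutant arrays and 19.9% lay below. The 26.6% includes probe sets that met the rule, so it stands beside the 7 and the further 5 together. The 5 of 24 members that lay below are near the share of all probe sets. However, a probe set with any wild-type or swn-7 array at the floor cannot lie below all of them. Only 11 members had all 4 of these arrays above the floor. The number of all probe sets that did was not computed, so these shares may have unlike denominators. Among the 24 members, the number that met the rule in the double mutant was 7 or 8 whichever array was left out. Leaving out an array can only relax the rule, so this number could not fall below 7. It was 6 at a floor of 20, at a fold of 3 and at a minimum signal of 40. Differences between genotypes were fitted with limma on log2 signals, and are given with limma's standard error (SE) and a p-value adjusted over all 17332 probe sets above the floor on at least 2 arrays, with a threshold of 0.05. The rule chose the clf-28 values for being high, which favours a lower value elsewhere, so levels below clf-28 are described with their size and SE and without a p-value. Members were sorted into the groups below by the same double-mutant, wild-type and swn-7 arrays. P-values against wild type therefore follow in part from the sorting and add no support for a member's group. Where an array of the lower genotype sat at the floor, the fold is given as a minimum ("at least"). Arrays tied at the floor show no spread, which can make the SE and p-values of such members too small.

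The 7 that stayed raised were AT3G28500, AT1G03710, AT1G09500, AT5G39220, BGLU45, AT5G56370 and 263988_at. AT3G28500, which encodes an acidic protein of the ribosomal stalk, gave 23.8 and 26.9 in wild type, 26.7 and 15.3 in swn-7, 116 and 94.6 in clf-28, and 359.8 and 515 in the double mutant. It stood in 3 steps with no overlap, and it was 17.0-fold higher in the double mutant than in wild type (log2 4.09, SE 0.31, limma adjusted p = 5.27e-05) and 4.10-fold higher than in clf-28 (log2 2.04, SE 0.31, limma adjusted p = 0.00157). AT1G03710, of the cystatin family of protease inhibitors, lay at the floor on all 4 wild-type and swn-7 arrays and gave 53.8 and 58.5 in clf-28 and 90.7 and 91.7 in the double mutant. Both double-mutant arrays thus exceeded both clf-28 arrays, and the transcript was at least 9.12-fold higher in the double mutant than in wild type (log2 3.19, SE 0.18, limma adjusted p = 1.24e-05). Its excess over clf-28 (log2 0.70, SE 0.18, limma adjusted p = 0.0149) lost the call when any 1 of the clf-28 or double-mutant arrays was left out.

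AT5G56370, an F-box protein gene, showed the same order at lower signals. It lay at the floor on all wild-type and swn-7 arrays, at 24.4 and 22.5 in clf-28 and at 57.9 and 44.9 in the double mutant, which was 2.18-fold above clf-28 (log2 1.12, SE 0.19, limma adjusted p = 0.0024) and at least 5.10-fold above wild type (limma adjusted p = 6.72e-05). BGLU45, a beta-glucosidase that acts on the glucosides of lignin precursors, gave 21.0 and 24.4 in wild type, 11.9 and 13.5 in swn-7, 75.3 and 73.9 in clf-28, and 92.3 and 196 in the double mutant. The double-mutant arrays lay above clf-28 but differed from each other by more than the smaller of them did from clf-28, and the log2 change of 0.85 (SE 0.34) from clf-28 missed the threshold with a limma adjusted p of 0.078, while that from wild type passed (5.94-fold, limma adjusted p = 8.06e-04).

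The other 3 that stayed raised were at similar signals in clf-28 and in the double mutant. AT1G09500, a relative of the cinnamyl alcohol dehydrogenases, gave 13.6 and 17.1 in wild type, the floor in swn-7, 159.9 and 166 in clf-28, and 142 and 115 in the double mutant. AT5G39220, of the alpha/beta hydrolase superfamily, gave 14.4 and 12.1 in wild type, 10.4 and the floor in swn-7, 74.0 and 105 in clf-28, and 113 and 87.7 in the double mutant. 263988_at lay at the floor in wild type and swn-7, at 38.5 and 33.9 in clf-28, and at 34.4 and 25.1 in the double mutant. In these 3, the arrays of clf-28 and the double mutant overlapped or, for AT1G09500, lay close. Their differences from clf-28 were -0.35 (SE 0.21), 0.18 (SE 0.25) and -0.30 (SE 0.20) on the log2 scale, with no p-value given. Over wild type the double mutant was 8.41-fold higher for AT1G09500, 7.56-fold higher for AT5G39220 and at least 2.94-fold higher for 263988_at (limma adjusted p = 3.60e-05, 9.98e-05 and 7.05e-04).

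**Figure D2:**
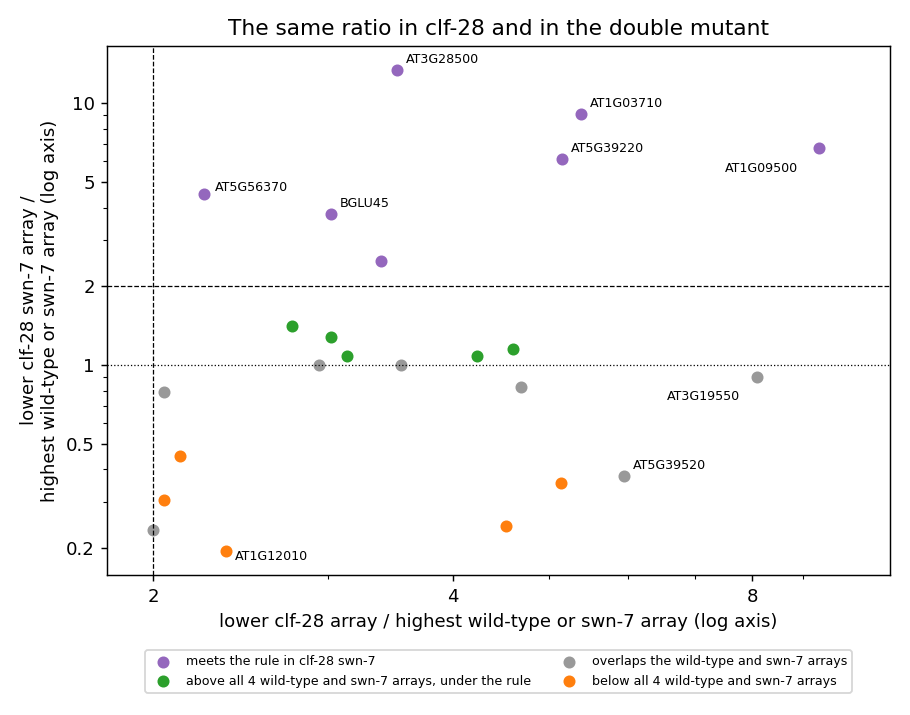
Each point is a member, with the lower clf-28 array over the highest wild-type or swn-7 array on the x axis and the same ratio for the lower clf-28 swn-7 array on the y axis, both on log axes, with dashed lines at 2 and a dotted line at 1. The 7 members above the horizontal dashed line reach 2.51 to 13.4 in the double mutant, and the other 17 lie between 0.195 and 1.41.

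A group of 5 kept signals above all wild-type and swn-7 arrays in the double mutant, but under the rule. 256818_at gave 57.2 and 69.5 in wild type, 49.4 and 66.7 in swn-7, 219.6 and 192 in clf-28, and 114 and 98.0 in the double mutant. AT5G60140, of the B3 family of DNA-binding proteins, lay at the floor in wild type and swn-7, at 30.7 and 30.2 in clf-28, and at 20.5 and 12.8 in the double mutant. Both lay between clf-28 and the other genotypes without overlap. They were higher in the double mutant than in wild type (log2 0.75, SE 0.21 and at least log2 0.70, SE 0.23, limma adjusted p = 0.0219 and 0.0393) and lay below clf-28 by log2 changes of -0.96 (SE 0.21) and -0.91 (SE 0.23). The rise of AT5G60140 over wild type lost the call when any 1 of 7 arrays was left out, and that of 256818_at without wild type replicate 1 or double-mutant replicate 1.

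The other 3 of that group stood close to the wild-type and swn-7 arrays. 262047_at gave 20.7 and 33.3 in wild type, 14.3 and 41.1 in swn-7, 174 and 209.5 in clf-28, and 44.5 and 47.8 in the double mutant. 246279_at lay at the floor in wild type and swn-7, at 46.0 and 66.0 in clf-28, and at 11.5 and 12.1 in the double mutant. 265430_at, also at the floor in those genotypes, gave 46.9 and 31.3 in clf-28 and 10.8 and 14.5 in the double mutant. None of these 3 passed against wild type (limma adjusted p = 0.195, 0.364 and 0.297), and all 3 lay below clf-28, with log2 changes of -2.05 (SE 0.47), -2.22 (SE 0.20) and -1.62 (SE 0.24).

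In 7 members the raised level of clf-28 gave way in the double mutant to signals that overlapped wild type and swn-7. AT3G19550 gave 12.2 and 13.7 in wild type, 10.8 and 10.6 in swn-7, 111 and 130.3 in clf-28, and 16.3 and 12.4 in the double mutant. AT5G39520 gave 19.9 and 26.6 in wild type, the floor and 15.8 in swn-7, 158 and 273 in clf-28, and 11.8 and the floor in the double mutant. Only AT1G09500 had a higher clf-28 ratio than these members, which stood at 8.09 and 5.95. In the double mutant AT3G19550 lay 8.46-fold below clf-28 (log2 -3.08, SE 0.21) and AT5G39520 at least 19.1-fold below it (log2 -4.26, SE 0.34). Against wild type, the log2 change of 0.14 (SE 0.21) of AT3G19550 had a limma adjusted p of 0.618. AT5G39520 was lower than wild type with a limma adjusted p of 0.0347 (at least log2 -1.08, SE 0.34). That call did not survive without wild type replicate 2 or without either double-mutant array.

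The oxygenase gene AT5G12270 lay at the floor in wild type and swn-7, at 37.4 and 29.4 in clf-28, and at 15.6 and the floor in the double mutant. 256300_at lay higher on both swn-7 arrays than on both wild-type arrays. It gave 10.7 and 30.4 in wild type, 52.6 and 76.8 in swn-7, 154 and 249 in clf-28, and 20.5 and 18.1 in the double mutant. Its double-mutant arrays fell between the 2 wild-type arrays and below both swn-7 arrays. The remaining 3, 246978_at, 265983_at and 248371_at, gave 25.9 to 75.2 in clf-28 and at most 12.7 on any other array. The double mutant lay below clf-28 in all 5, with a log2 change of -3.34 (SE 0.49) for 256300_at. The others had a double-mutant array at the floor, so their changes are minimum sizes. These were at least -1.41 (SE 0.24) for AT5G12270, -2.71 (SE 0.20) for 246978_at, -2.03 (SE 0.24) for 265983_at and -1.43 (SE 0.15) for 248371_at. AT5G12270 and 265983_at lay above the floor on both clf-28 arrays and 1 double-mutant array alone, so they passed the filter on low signals through clf-28.

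The last 5 members went below every wild-type and swn-7 array in the double mutant. AT1G12010, which encodes an oxidase of the family that makes the hormone ethylene, gave 81.5 and 70.8 in wild type, 63.9 and 92.3 in swn-7, 219 and 259.5 in clf-28, and 18 and 23.6 in the double mutant. It was 3.69-fold lower in the double mutant than in wild type (log2 -1.88, SE 0.24, limma adjusted p = 7.22e-04) and lay 11.6-fold below clf-28 (log2 -3.53, SE 0.24). 266965_at gave 21.3 and 39.5 in wild type, 38.7 and 41.1 in swn-7, 189 and 186 in clf-28, and the floor and 13.7 in the double mutant. 267129_at gave 21.5 and 23.4 in wild type, 28.1 and 26.2 in swn-7, 145 and 155 in clf-28, and the floor and 12.4 in the double mutant. Both were lower in the double mutant than in wild type, at least 2.47-fold and at least 2.01-fold (limma adjusted p = 0.012 and 0.00523), the first of which lost the call without double-mutant replicate 1.

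253309_at and 264638_at lay at the floor on both double-mutant arrays. 253309_at gave 14.5 to 22.2 in wild type and swn-7 and 47.2 and 53.9 in clf-28, and 264638_at gave 14.9 to 32.7 and then 67.2 and 219. They were at least 1.79-fold and 2.93-fold lower in the double mutant than in wild type (limma adjusted p = 0.0268 and 0.0435), and both calls were lost when wild type replicate 1 or either double-mutant array was left out, that of 264638_at also without wild type replicate 2 or either swn-7 array. All 4 of these probe sets lay below clf-28, by at least 16-fold for 266965_at, 13.4-fold for 267129_at, 5.05-fold for 253309_at and 12.1-fold for 264638_at, whose clf-28 arrays were themselves 3.26-fold apart.

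Across all 24, limma called 9 members higher and 6 lower in the double mutant than in wild type, where 25.2% of the 17332 probe sets tested were called higher and 21.5% lower. The median log2 change was 0.28 for the members and 0.11 for all probe sets tested. Wild-type values had been chosen low, and 8 members lay at the floor in all wild-type and swn-7 arrays, where a fall cannot be seen. The 6 lower calls became 2 or 3 when replicate 1 or replicate 2 of the double mutant was omitted, and 1, that of AT1G12010, at a floor of 20. Against clf-28, limma called 17 members lower and 3 higher, where 21.7% and 23.3% of all probe sets were, with a median log2 change of -1.82 for the members and 0.09 for all. The clf-28 arrays had been chosen high, so this share is not set against the background as a result. All 24 members passed the filter on low signals, which the rule itself ensures through clf-28.

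**Figure D3:**
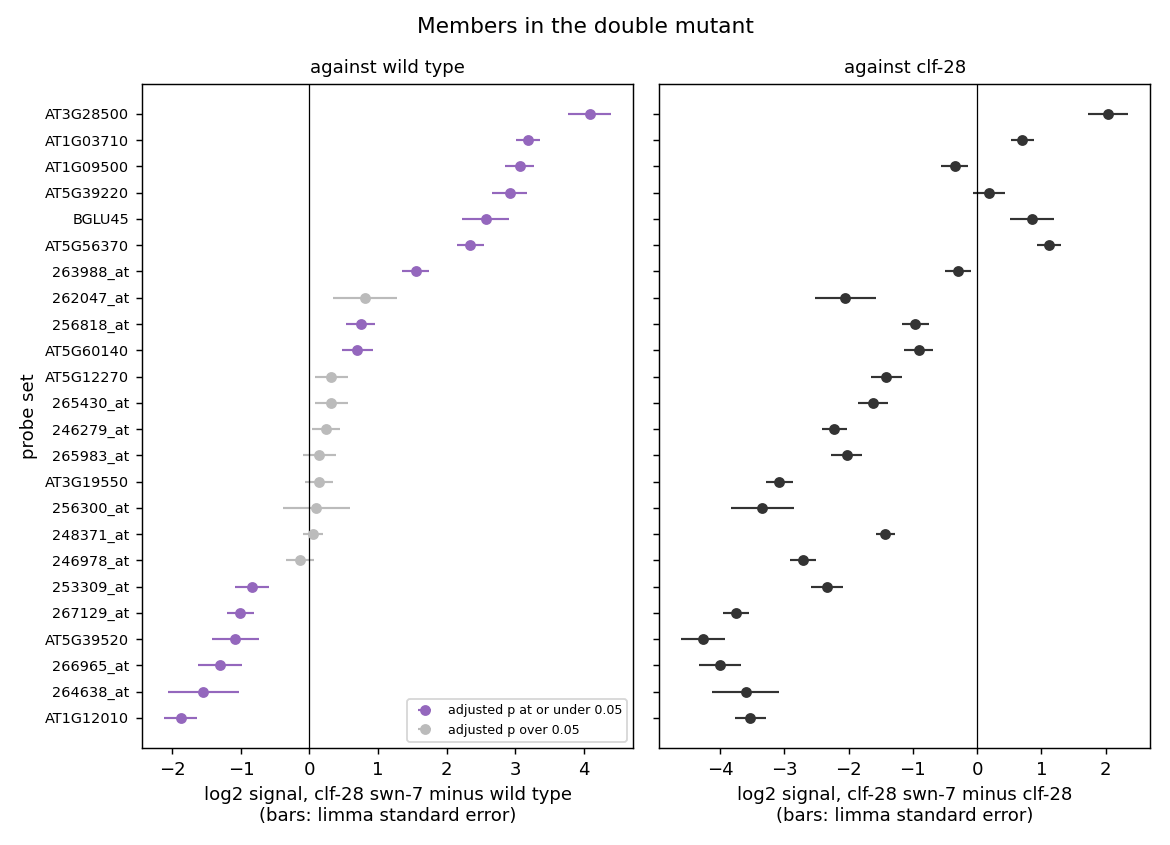
Log2 signal of the double mutant minus wild type (left) and minus clf-28 (right) for the 24 members, ordered by the left panel, with bars for limma's standard error and, on the left, purple points for an adjusted p at or under 0.05. No calls are marked on the right, where the rule had chosen the clf-28 values. The left panel runs from -1.88 to 4.09 around 0, and 19 of the 24 points of the right panel lie below 0.

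Of the 8 members at the floor in all wild-type and swn-7 arrays, 3 met the rule in the double mutant, and of the other 16, 4 did. All 5 members that went below wild type and swn-7 were among the 16, since a signal cannot go below the floor. Of the 11 members with a gene name, 6 stayed raised, and of the 13 known here only by their probe set, 1 did. Over all probe sets, 5.23% met the rule in the double mutant. That share was not computed separately for named, unnamed or floor-level probe sets, so no difference between these kinds of member is read from the counts. These counts are descriptions of a set chosen on the same arrays and were not tested.

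The 11 named members lay on chromosome 1 (4 genes), chromosome 3 (2 genes) and chromosome 5 (5 genes) in the RefSeq gene table of assembly TAIR10.1. Coordinates are not printed, since the sources used here name no build for the probes. The closest pair was AT5G39220 and AT5G39520, with 32 protein-coding genes between them, of which the first stayed raised in the double mutant and the second did not. Up to 3 protein-coding genes to each side of a named member gave 30 measured neighbours, of which 0 met the clf-28 rule, as 0.127% of all probe sets do. For the 20 of them that were tested, the median log2 change in clf-28 was 0.02 and the range -0.25 to 0.49. The median over all probe sets tested was 0. BGLU46, the next gene after BGLU45 and a relative of it, changed by log2 0.21 (SE 0.27) in clf-28 and by 0.03 in the double mutant, where BGLU45 rose by 2.57. By contrast AT5G56380, the next gene after AT5G56370, met the rule in the double mutant, as 5.23% of all probe sets did. It changed by log2 0.07 in clf-28 and by 1.29 (SE 0.24) in the double mutant. In the double mutant the median log2 change was 0.11 both for the tested neighbours and for all probe sets tested.

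Few of the genes usually followed in Polycomb mutants were named in the annotation used here. Of 23 floral MADS-box and flowering genes 3 were measured, and limma called 0 of them in clf-28 against wild type (2 had an unadjusted p below 0.05), where 0.104% of all probe sets were called higher and 0.0173% lower. In the double mutant, AGL24, which promotes flowering, and AGL42, a relative of the floral integrator SOC1, rose (log2 2.27, SE 0.24 and log2 0.96, SE 0.28, limma adjusted p = 2.86e-04 and 0.0255), and AGL19 did not pass (log2 0.08). AGL24 gave 31.0 and 22.4 in wild type, 20.4 and 18.6 in swn-7, and 41.7 and 43.7 in clf-28, under the 2-fold ratio of the rule, then 146 and 110.2 in the double mutant. Of 14 stress and defence genes, COR15A and PDF1.2 were measured and 0 passed in clf-28 (1 had an unadjusted p below 0.05), while COR15A fell in the double mutant (log2 -2.97, SE 0.39, limma adjusted p = 7.33e-04). The meristem gene CLV3 lay at the floor on all arrays, as did both measured anther and pollen markers. None of 17 genes of the Polycomb machinery, 6 of senescence and sugar starvation and 3 floral organ markers was measured under a name. The measured leaf, root and seed markers gave 0 limma calls in clf-28, with an unadjusted p below 0.05 for 0 of 2, 1 of 2 and 1 of 2, and in the double mutant 2 of 2 leaf and 2 of 2 root markers fell and 2 of 2 seed markers rose, where limma called 25.2% of all probe sets higher and 21.5% lower.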

How the data were processed

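RNA of whole seedlings was hybridised to Affymetrix ATH1 arrays, 1 per sample. The deposited values are array intensities on a linear scale, made with MAS5 and GCOS per the submitters' processing notes (versions not stated). No scaling was added, since all arrays had a trimmed mean of 100.0. Detection calls were not used, and the number of arrays limits the precision.

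Signals were floored at 10, the 64 control probe sets were left out, and log2 was taken. Probe sets above the floor on at least 2 arrays (17332) were fitted with limma 3.58.1 (R 4.3.3) to the 8 arrays together (1 mean per genotype, eBayes with an intensity trend, 4 residual and 3.43 prior degrees of freedom). P-values are two-sided and Benjamini-Hochberg adjusted over all probe sets tested, with a threshold of 0.05. The fit was also run on simulated data with normal noise and no floor, which does not cover members at the floor. A fold against a genotype with an array at the floor is a lower bound. In the platform's annotation 13513 probe sets have 1 symbol (13436 matched RefSeq), 503 have several and 8730 are unnamed here. For list genes the probe set with the highest mean log2 signal was used. All 24 members are described, and the members and gene lists were chosen with earlier results of these data known. Promoter motifs were not analysed here. Alternatives were other floors, scalings, filters, folds and eBayes settings, a constant, a replicate block, fits to the compared genotypes alone and the omission of each array.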

Additional observations from a re-analysis of the deposited data

Results flagged for a closer look

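In 7 members, differences ran opposite ways in the 2 backgrounds: both clf-28 arrays lay above both wild-type arrays, which the rule fixed, and both double-mutant arrays lay below both swn-7 arrays. The latter held for 29.2% of the members and for 24.0% of all probe sets, so the share of members is near the background. Neither share leaves out probe sets with a swn-7 array at the floor, for which it cannot hold. The difference between backgrounds was not tested, since the rule had chosen the clf-28 and wild-type values. The 7 were picked for double-mutant arrays below swn-7, so the p-values that follow describe them and add no support. The log2 change from swn-7 to the double mutant was -1.29 for 267129_at, -1.77 for 266965_at, -1.90 for AT1G12010, -0.98 for 253309_at and -1.72 for 256300_at (limma adjusted p = 0.0017, 0.00321, 6.73e-04, 0.0153 and 0.0233). It was -0.97 for 264638_at and -0.28 for 248371_at, which did not pass (limma adjusted p = 0.17 and 0.171). From wild type to clf-28 the 7 differed, in the order 267129_at, 266965_at, AT1G12010, 253309_at, 256300_at, 264638_at and 248371_at, by 2.74, 2.70, 1.65, 1.49, 3.44, 2.05 and 1.49. For 248371_at the swn-7 signals of 12.7 and 12.6 and the double-mutant signal of 10.8 lay close to the floor. Apart from AT1G12010 and 256300_at, these members had a double-mutant array at the floor, so their changes from swn-7 are minimum sizes.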

How the results depend on the processing

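The rule chose 64 probe sets at a fold of 1.5, 19 of which met it in the double mutant, 78 and 120 on the replicate 1 and replicate 2 arrays alone, and 40 on both sets separately. Leaving out an array in turn gave 24 to 71 members, and 7 to 13 that met the rule in the double mutant. The other settings of the rule gave 16 to 24 members and 5 to 8. These totals hide changes of membership: of the 24 members, 21 met the rule under quantile normalization and 21 with equal medians. At a floor of 20, 17 of them did. In the fits, 7 to 11 members were higher in the double mutant than in wild type and 17 to 21 differed from clf-28. Lower calls against wild type fell from 6 to 1 at a floor of 20 and to 3 with no filter. The rule favours lower calls against clf-28, and the sorting favours the calls of the 7 that stayed raised. How often such calls held across settings therefore adds no support. Of 15 calls against wild type 8 held under every alternative that tested them (the 7 that stayed raised and AT1G12010), and of 20 against clf-28 16 did. Signs reversed, with no call on either side, for 256300_at against wild type (-0.28 at a floor of 20, and -0.66 to 0.85 with an array left out), AT3G19550 against wild type (-0.06 to 0.34 with an array left out) and AT5G39220 against clf-28 (-0.08 to 0.43 with an array left out). Replicate numbers are shared between genotypes, but deviations of same-numbered arrays correlated at -0.08 to 0.22, so they were not taken as pairs. With the replicate number as a block, 9 members were higher than wild type and 20 differed from clf-28, as without it. Signals near the floor limit every statement on a member that is at it.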
